A study of Mus musculus with 8 samples.

Results

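The cornified envelope is the insoluble shell that replaces the plasma membrane of keratinocytes when they die at the skin surface. A family of 10 genes that build, crosslink or mature this shell was followed in sorted basal keratinocytes of mouse back skin: Ivl, Lor, Flg, Cnfn, Tgm1, Tgm3, Casp14, Krtdap, Sbsn and Cdsn. Members were chosen by gene symbol: every probe set annotated with a single symbol of the list belonged to the family, and the probe set with the highest mean over all arrays stood for its gene. In this way 13 probe sets gave 10 genes of the 17097 that the array measured.

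The study compared basal cells of stretched, chemically treated and untreated skin of CD1 mice, an outbred strain with no transgene or mutant allele named in the labels. EXPD4 denotes force-mediated tissue expansion, taken at day 4 (3 mice). TPA denotes treatment with 12-O-tetradecanoylphorbol-13-acetate, a phorbol ester applied to mouse skin to make it hyperplastic (2 mice). CTRL denotes untreated animals (3 mice). Dose, duration and age are not given in the sources used here. Each mouse gave 1 array, made from 300 sorted cells that carried integrin alpha-6 (ITGA6), a marker of basal keratinocytes, and lacked CD34, a marker of hair follicle bulge cells. The protocol names infundibulum cells, from the mouth of the hair follicle, beside interfollicular cells as targets of this gate.

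All values are log2 RMA signals, so a difference of 1 is a doubling or halving. The basal keratins Krt5 and Krt14 lay between 13.2 and 13.3 on all 8 arrays, and Cd34 stayed under the background limit on all of them. That limit is the 95th percentile of 79 sensory receptor genes presumed silent in skin, and it lay between 6.37 and 6.55 on the arrays. Arrays of a group correlated at r = 0.990 to 0.995 over genes, and arrays of different groups at 0.961 to 0.987. Genes known to rise in hyperplastic skin were lowest on the arrays labelled TPA: the keratin Krt16 read 12.20 and 12.10 there, against 12.86 to 12.93 on EXPD4 arrays and 13.03 to 13.05 on CTRL arrays, and ornithine decarboxylase, Odc1, read 8.93 and 9.05, against 9.70 to 9.99 on EXPD4 and 11.33 to 11.36 on CTRL arrays. Of 9 measured phorbol ester and wound genes, 1 was higher and 7 lower in TPA than in CTRL, at the threshold given below. The 9 measured proliferation genes gave 0 higher and 5 lower in TPA, and 2 to 5 lower when the processing was varied. That threshold was passed by 20.8% of all genes between TPA and CTRL. Between EXPD4 and CTRL, 0 proliferation genes were higher and 1 was lower, beside 11.5% of all genes passing. Directions for TPA below follow the labels. In sorted cells measured in bulk, fewer cells of a type and less RNA per cell cannot be told apart.

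In textbook accounts, basal cells that leave the basement membrane first make the spinous keratins Krt1 and Krt10, then envelope precursors. Involucrin (Ivl) and other precursors gather under the membrane, transglutaminases join them by isopeptide bonds, and loricrin (Lor) later becomes the bulk of the shell. Filaggrin (Flg) bundles keratin inside it and is cut into amino acids with the help of caspase-14, while corneodesmosin (Cdsn) glues the dead cells together. Most of these products are typical of granular rather than basal cells, and an ITGA6-positive gate is meant to hold basal cells.

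The promoters of 5 members are shown first, because these genes differ in how their signals moved and in the short motifs they hold. A link between motifs and signals was not tested. Each line gives the 250 bases before a start site (RefSeq, GRCm38.p6), 5′ to 3′ on the gene's strand, with TATAAA and TGANTCA in capitals. For Tgm1, which has 2 start sites in the table, the window before the more upstream of them is given.
Tgm1 (chr14:55713493-55713742, minus strand): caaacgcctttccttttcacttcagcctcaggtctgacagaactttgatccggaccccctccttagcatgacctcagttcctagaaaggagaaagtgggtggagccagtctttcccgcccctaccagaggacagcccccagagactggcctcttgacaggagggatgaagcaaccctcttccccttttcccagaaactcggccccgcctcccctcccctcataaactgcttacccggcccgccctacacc
Cnfn (chr7:25369725-25369974, minus strand): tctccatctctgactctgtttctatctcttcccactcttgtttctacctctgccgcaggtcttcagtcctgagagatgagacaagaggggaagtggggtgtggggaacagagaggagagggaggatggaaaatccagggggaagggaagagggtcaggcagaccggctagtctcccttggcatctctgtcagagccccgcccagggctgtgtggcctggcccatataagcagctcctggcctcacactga
Casp14 (chr10:78718294-78718543, minus strand): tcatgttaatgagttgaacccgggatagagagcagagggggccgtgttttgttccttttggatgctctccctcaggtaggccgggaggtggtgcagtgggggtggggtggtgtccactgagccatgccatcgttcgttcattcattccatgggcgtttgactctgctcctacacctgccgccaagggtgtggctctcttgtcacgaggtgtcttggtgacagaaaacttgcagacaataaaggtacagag
Krtdap (chr7:30787655-30787904, plus strand): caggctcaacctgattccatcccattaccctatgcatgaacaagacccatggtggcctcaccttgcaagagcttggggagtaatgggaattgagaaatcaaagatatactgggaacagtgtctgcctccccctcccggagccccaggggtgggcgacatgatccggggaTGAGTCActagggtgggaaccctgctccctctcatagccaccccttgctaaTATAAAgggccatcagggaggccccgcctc
Ivl (chr3:92573736-92573985, minus strand): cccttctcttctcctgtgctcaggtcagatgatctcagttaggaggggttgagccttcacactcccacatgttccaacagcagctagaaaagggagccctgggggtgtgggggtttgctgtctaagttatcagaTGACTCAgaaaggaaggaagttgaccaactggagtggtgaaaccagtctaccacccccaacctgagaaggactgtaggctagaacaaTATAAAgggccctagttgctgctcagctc
The lines for Krtdap and Ivl carry both capitalised motifs, and those for Tgm1, Cnfn and Casp14 carry neither.

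Motifs were searched on both strands over windows of 300 bases, 250 before and 50 after each start site, in 32851 promoters; none of the matches printed in capitals overlap each other. All 10 members had a window, and Tgm1 and Cdsn had 2 each, which gave 12. The TATA box TATAAA was found in Flg, Ivl, Krtdap, Lor and Tgm3, and in 13.62% of all promoters. The AP-1 site TGANTCA was found in Flg, Ivl, Krtdap, Lor and Sbsn, and in 7.808% of all promoters. Flg, Ivl, Krtdap and Lor held both, as did 1.543% of all promoters. In Krtdap the AP-1 match begins 81 bases and the TATA box 30 bases before the start site, and in Ivl they begin 116 and 29 bases before it.

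Among the other motifs, C/EBP was found in as many members as TATAAA or TGANTCA, and KLF and Grainyhead in nearly all or none. The C/EBP motif TTGCNNAA was found in Cdsn, Flg, Sbsn, Tgm1 and Tgm3, against 10.8% of all promoters, in Tgm1 only 31 bases behind its downstream start site. The KLF motif CACCC lay in 9 members, all but Lor, and in 57.52% of all promoters. The Grainyhead motif AACCGGTT lay in no member window and in 0.1461% of all promoters. These are matches of letters, and binding was not measured.

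Between EXPD4 and CTRL, 4 of the 10 members passed an adjusted p of 0.05 (limma, Benjamini-Hochberg over all genes): Casp14 and Krtdap were higher, and Tgm1 and Cnfn were lower. Over all genes 11.5% passed, 5.69% higher and 5.78% lower. Between TPA and CTRL the members past the threshold were again Casp14 and Krtdap, higher, and Tgm1 and Cnfn, lower, against 20.8% of all genes, 10.2% higher and 10.6% lower. These 2 comparisons share the CTRL arrays, so they are not independent. Between EXPD4 and TPA only Tgm1 passed, higher in EXPD4, against 5.98% of all genes, 3.16% higher and 2.81% lower.

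The family as a whole had no common direction. Its median difference was -0.07 between EXPD4 and CTRL, 0.10 between TPA and CTRL and -0.04 between EXPD4 and TPA, against 0.01, -0.03 and 0.03 over all genes. The arrays of the compared groups did not overlap for 5, 8 and 4 members, against 30%, 45.8% and 35.7% of all genes. Of the 10 members, 7 lay above the background limit on all arrays, Cdsn on 7 of 8, and Lor and Flg on none.

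**Figure D1:**
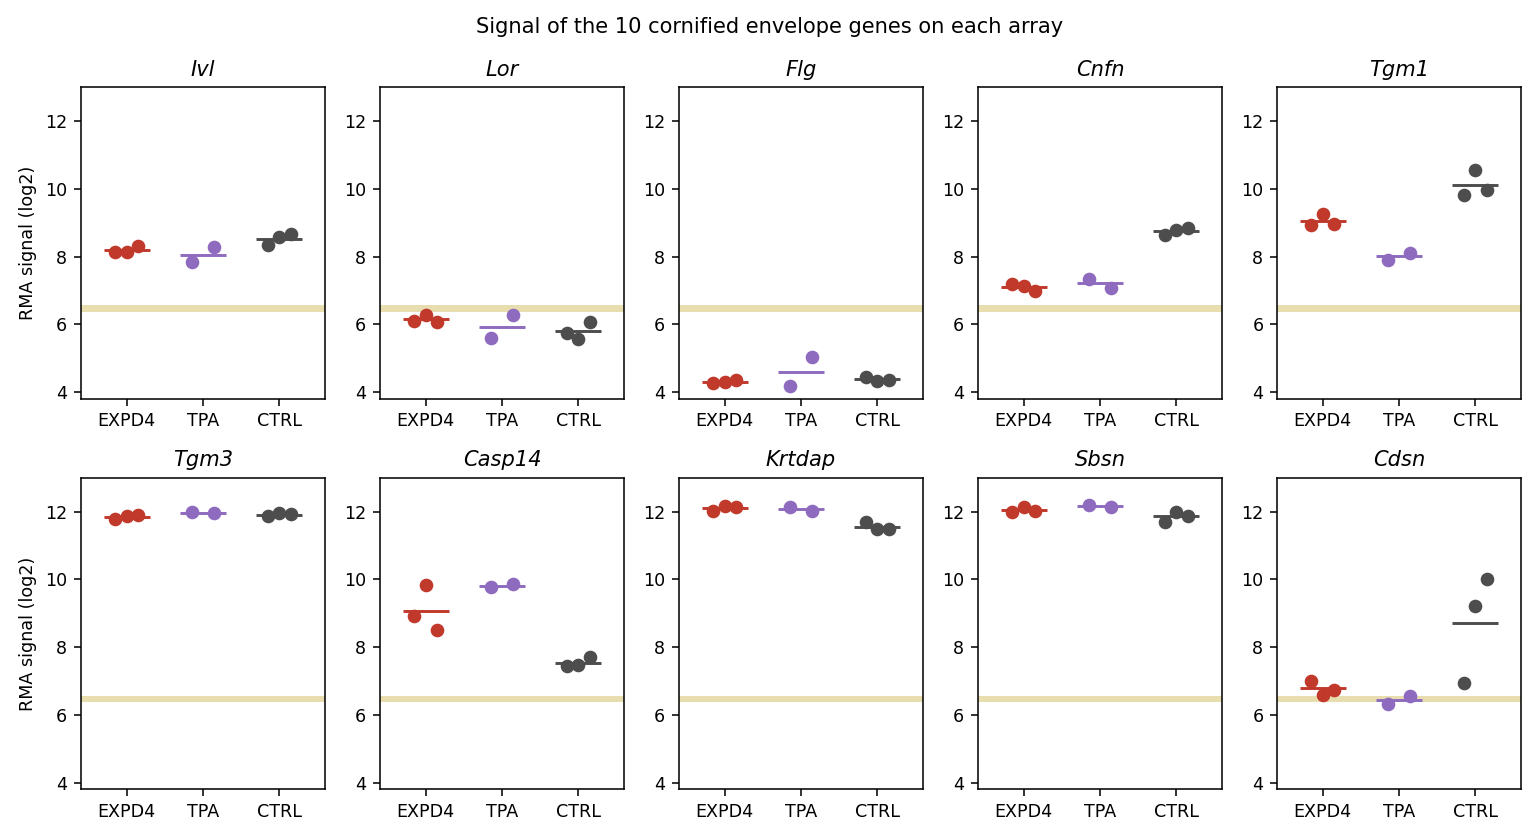
RMA signal (log2) of each member on every array, in EXPD4, TPA and CTRL; points are arrays (1 mouse each), short bars group means, and the band the range of the background limit, 6.37 to 6.55. Cnfn and Tgm1 are lower, and Casp14 and Krtdap higher, on all EXPD4 and TPA arrays than on any CTRL array, while Lor and Flg lie below the band.

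Among the precursors, cornifelin (Cnfn; Entrez gene 72383, chr7:25367616-25369724), a small protein of the envelope, was lower after both treatments. Its signal was 7.18, 7.14 and 6.99 on the EXPD4 arrays and 7.35 and 7.08 on the TPA arrays, against 8.62, 8.77 and 8.85 on the CTRL arrays. All 5 arrays of treated skin lay more than 1 unit below the lowest CTRL array. The difference was -1.64 ± 0.10 between EXPD4 and CTRL (SE, limma adjusted p = 5.16e-05), a signal 3.13-fold lower. Between TPA and CTRL it was -1.53 ± 0.11 (adjusted p = 3.92e-05), 2.90-fold lower. EXPD4 and TPA differed by -0.11 ± 0.11 (adjusted p = 0.692), with overlapping arrays.

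Involucrin (Ivl; Entrez gene 16447, chr3:92570899-92573790), an early scaffold protein of the envelope, read 8.13, 8.13 and 8.32 on EXPD4 arrays and 7.82 and 8.27 on TPA arrays, against 8.33, 8.58 and 8.67 on CTRL arrays. The CTRL arrays lay just above the others without overlapping them. Neither difference passed: -0.33 ± 0.13 between EXPD4 and CTRL (adjusted p = 0.168) and -0.48 ± 0.15 between TPA and CTRL (adjusted p = 0.0532). The call depends on the probe set. The second Ivl probe set, with signals of 6.23 to 7.27, gave -0.54 (adjusted p = 0.0554) and -0.77 (adjusted p = 0.012) when every probe set was tested by itself, and the mean of both gave -0.44 (adjusted p = 0.0471) and -0.63 (adjusted p = 0.00994).

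Loricrin (Lor; Entrez gene 16939, chr3:92080271-92083142) and filaggrin (Flg; Entrez gene 14246, chr3:93273546-93293689), the markers of the granular layer, were not measurable above background. Lor read 6.10, 6.29 and 6.05 in EXPD4 and 5.60 and 6.26 in TPA, against 5.74, 5.55 and 6.07 in CTRL. Flg read 4.26, 4.29 and 4.34 in EXPD4 and 4.18 and 5.02 in TPA, against 4.45, 4.32 and 4.36 in CTRL. Every array lay under its limit for both genes, so only an upper bound on their level is given. No comparison of either passed the threshold, but Flg passed between TPA and CTRL when TPA 1 was left out (0.64, adjusted p = 0.00436), as it did between EXPD4 and TPA (-0.72, adjusted p = 0.0116). Both values rest on TPA 2 alone.

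Of the enzymes, Tgm1 was lower after both treatments, Casp14 was higher and Tgm3 did not pass. Transglutaminase 1 (Tgm1; Entrez gene 21816, chr14:55700009-55713921), the membrane-bound enzyme that crosslinks early precursors and attaches lipids, read 8.92, 9.25 and 8.97 in EXPD4 and 7.91 and 8.09 in TPA, against 9.83, 10.54 and 9.95 in CTRL. The 3 groups formed separate steps, with TPA lowest and CTRL highest. Between EXPD4 and CTRL the difference was -1.06 ± 0.18 (adjusted p = 0.00631), 2.09-fold lower. Between TPA and CTRL it was -2.11 ± 0.20 (adjusted p = 0.000159), 4.30-fold lower.

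Tgm1 was also the member that separated the treatments. It was 1.04 ± 0.20 higher in EXPD4 than in TPA (adjusted p = 0.0206), or 2.06-fold. The size kept between 0.94 and 1.14 when any array was left out, but the call was lost without EXPD4 2, EXPD4 3, TPA 1 or TPA 2, where the adjusted p reached 0.109. Both differences from CTRL stayed past the threshold in each of these refits.

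Transglutaminase 3 (Tgm3; Entrez gene 21818, chr2:129987794-130050399), a soluble enzyme that crosslinks loricrin and small proline-rich proteins, was the steadiest member. It read 11.78, 11.87 and 11.91 in EXPD4 and 11.98 and 11.96 in TPA, against 11.86, 11.96 and 11.93 in CTRL. Its highest and lowest arrays differed by 0.20, the smallest range of the family. The differences were -0.07 ± 0.07 between EXPD4 and CTRL (adjusted p = 0.661) and 0.06 ± 0.08 between TPA and CTRL (adjusted p = 0.684). Of 6 other transglutaminases measured, 0 passed in any comparison by limma, and 4 lay under the background limit. At an unadjusted p under 0.05, 2 of them were lower in EXPD4 than in CTRL and 0 differed between TPA and CTRL. Of all 17097 genes, 4056 and 5412 passed that p.

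Caspase-14 (Casp14; Entrez gene 12365, chr10:78711995-78718347) is a protease of the outer epidermis that helps to break down filaggrin. It read 8.91, 9.84 and 8.49 in EXPD4 and 9.78 and 9.85 in TPA, against 7.43, 7.48 and 7.70 in CTRL. All EXPD4 and TPA arrays lay above CTRL, and the highest of the EXPD4 arrays, EXPD4 2, lay among the TPA arrays. Between EXPD4 and CTRL the difference was 1.55 ± 0.29 (adjusted p = 0.00947), 2.92-fold higher. Between TPA and CTRL it was 2.28 ± 0.32 (adjusted p = 0.00124), 4.86-fold higher. The difference between EXPD4 and TPA, -0.73 ± 0.32, missed the threshold (adjusted p = 0.254), and passed without EXPD4 2 (-1.11, adjusted p = 0.0118).

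**Figure D2:**
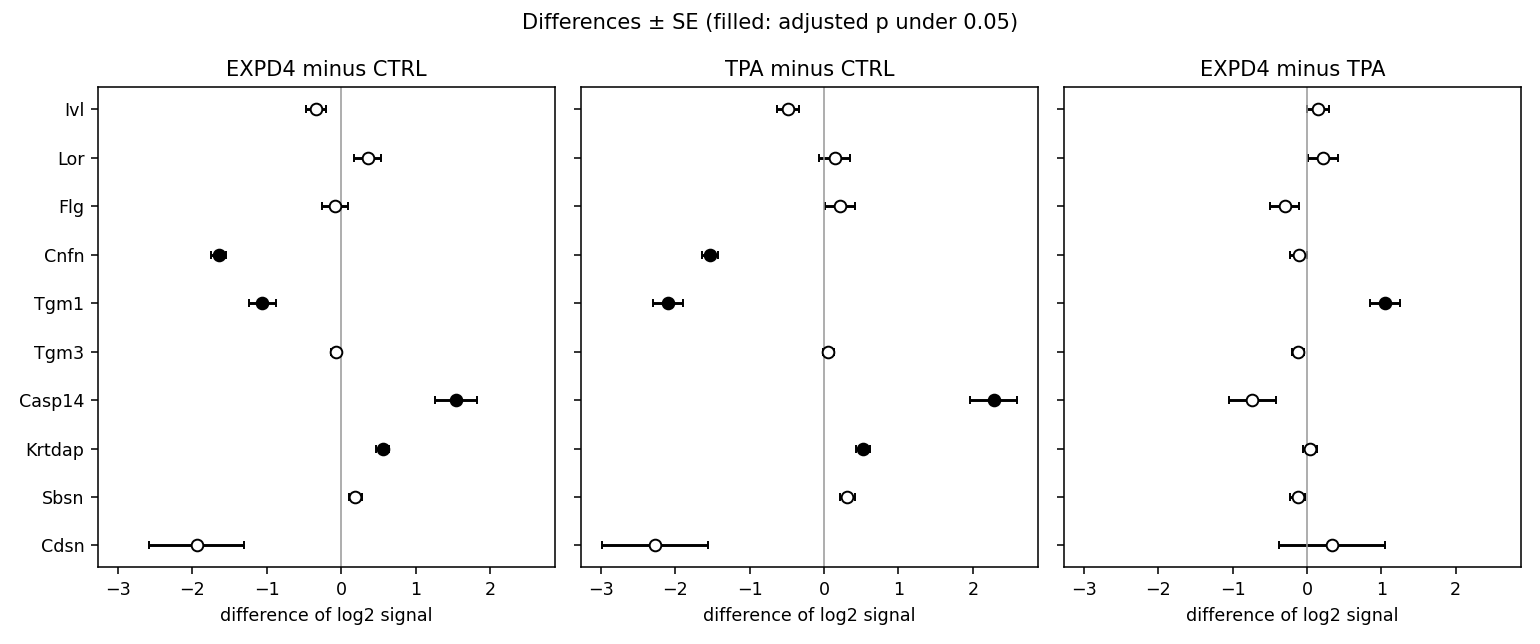
Differences of log2 signal with their SE from limma for the 10 members, in EXPD4 minus CTRL, TPA minus CTRL and EXPD4 minus TPA; filled points passed an adjusted p of 0.05. Cnfn and Tgm1 lie left of 0 and Casp14 and Krtdap right of 0 in both comparisons with CTRL, and Cdsn has the longest error bars.

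Krtdap and Sbsn encode secreted proteins of differentiating keratinocytes and are neighbours on chromosome 7. Keratinocyte differentiation-associated protein (Krtdap; Entrez gene 64661, chr7:30787905-30791089) read 12.03, 12.17 and 12.14 in EXPD4 and 12.15 and 12.01 in TPA, against 11.68, 11.50 and 11.49 in CTRL. All EXPD4 and TPA arrays were above all CTRL arrays. The rise was small but larger than the spread: 0.56 ± 0.08 between EXPD4 and CTRL (adjusted p = 0.00347, 1.47-fold) and 0.52 ± 0.09 between TPA and CTRL (adjusted p = 0.0045, 1.43-fold). EXPD4 and TPA differed by 0.04 ± 0.09 (adjusted p = 0.898).

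Suprabasin (Sbsn; Entrez gene 282619, chr7:30732674-30756134), a substrate of transglutaminases, read 11.99, 12.14 and 12.01 in EXPD4 and 12.19 and 12.15 in TPA, against 11.71, 11.99 and 11.88 in CTRL. EXPD4 and CTRL arrays overlapped at 11.99, while both TPA arrays lay above CTRL. The differences did not pass: 0.19 ± 0.09 between EXPD4 and CTRL (adjusted p = 0.253) and 0.31 ± 0.10 between TPA and CTRL (adjusted p = 0.057). Another Sbsn probe set, with signals of 9.03 to 10.00, passed between TPA and CTRL when tested by itself (0.65, adjusted p = 0.0142). Dmkn, the measured gene between Sbsn and Krtdap, another secreted product of differentiating keratinocytes, had differences of 0.01 and 0.03. Krtdap, Sbsn and Tgm3 lay between 11.5 and 12.2, near the brightest probe sets of the arrays at 13.7, and whether such bright signals are compressed was not tested.

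Corneodesmosin (Cdsn; Entrez gene 386463, chr17:35543101-35557180), a glycoprotein of the junctions between corneocytes, had the widest range of the family, 3.67 units. It read 7.01, 6.60 and 6.74 in EXPD4 and 6.33 and 6.56 in TPA, against 6.95, 9.22 and 10.01 in CTRL. CTRL 1 lay among the EXPD4 arrays, and CTRL 2 and 3 stood apart above all others. TPA 1 was under the background limit. The differences of -1.94 ± 0.64 between EXPD4 and CTRL (adjusted p = 0.0936) and -2.28 ± 0.71 between TPA and CTRL (adjusted p = 0.054) did not pass. Without CTRL 1 they were -2.83 (adjusted p = 0.000876) and -3.16 (adjusted p = 0.000293), so the call depends on this array. Without CTRL 3 they were -1.30 (adjusted p = 0.245) and -1.64 (adjusted p = 0.128).

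The spinous keratins Krt1 and Krt10 were higher after both treatments. Krt10 read 12.75, 12.75 and 12.70 in EXPD4 and 12.73 and 12.71 in TPA, against 11.92, 10.96 and 10.90 in CTRL, a difference of 1.47 (adjusted p = 0.00451) and 1.46 (adjusted p = 0.00445). Krt1 read 12.97, 13.13 and 12.94 in EXPD4 and 12.84 and 12.54 in TPA, against 12.09, 10.49 and 11.28 in CTRL. It was 1.73 higher in EXPD4 (adjusted p = 0.0109) and 1.40 higher in TPA (adjusted p = 0.0271). The second of these calls held in 13 of 18 alternative settings and was lost, among others, without TPA 1, TPA 2 or CTRL 3, with an adjusted p of up to 0.136. Both keratins were highest in CTRL 1 among the controls, the control with the lowest Cdsn. Summed on the linear scale, Krt1 and Krt10 gave a log2 level of 13.83 to 13.96 in EXPD4 and 13.63 to 13.78 in TPA, against 11.74 to 13.01 in CTRL, and their part in the members' differences was not tested.

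Of 12 genes of early suprabasal differentiation, 6 were higher and 1 lower in EXPD4 than in CTRL, beside 11.5% of all genes passing. In TPA 5 were higher and 2 lower, beside 20.8%. Krt2, a keratin of the upper spinous layer, showed the largest of the named differences: it read 12.25, 12.35 and 12.38 in EXPD4 and 12.62 and 12.54 in TPA, against 5.99, 6.50 and 7.35 in CTRL. The differences were 5.72 ± 0.28 (adjusted p = 2.87e-05) and 5.97 ± 0.31 (adjusted p = 7.22e-06), with 2 of 3 CTRL arrays above the background limit. Desmoglein Dsg1a, an adhesion protein of upper layers, was 1.79 and 2.04 higher (adjusted p = 8.21e-05 and 2.52e-05).

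Marker lists of other cell types gave the following summed log2 levels. Cd207 and Ptprc, which define Langerhans cells and leukocytes, lay under the limit on all arrays. The summed log2 level of the 6 Langerhans cell markers was 9.71 to 9.99 in EXPD4 and 10.14 to 10.31 in TPA, against 10.47 to 11.05 in CTRL. Of these, H2-Ab1 had differences from CTRL of -1.93 ± 0.38 in EXPD4 (limma adjusted p = 0.0124) and -2.46 ± 0.42 in TPA (adjusted p = 0.00371). Its TPA signals, 5.89 and 6.16, lay under the limit. Epcam was at -1.04 ± 0.16 in EXPD4 (adjusted p = 0.0045) and -0.25 in TPA (adjusted p = 0.406), and 0 of the 6 passed as higher than CTRL. Of the 6 endothelial markers 2 lay under the limit on all arrays, and their summed level was 9.07 to 9.80 in EXPD4 and 8.70 to 8.95 in TPA, against 8.89 to 10.8 in CTRL. The highest of these values was CTRL 1, where Cdh5, an endothelial cadherin, read 9.73. The 6 macrophage and neutrophil markers, 3 of them under the limit on all arrays, summed to 8.54 to 8.66 in EXPD4 and 8.54 to 8.60 in TPA, against 8.78 to 9.61 in CTRL. Of 5 T cell markers, 4 lay under the limit on all arrays, and the list summed to 10.32 to 10.39 in EXPD4 and 10.37 to 10.52 in TPA, against 9.26 to 9.60 in CTRL. The other T cell marker, Thy1, was 1.23 ± 0.13 higher in EXPD4 (adjusted p = 0.00063) and 1.33 ± 0.14 higher in TPA (adjusted p = 0.00031).

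The 6 fibroblast markers, 3 of them under the limit on all arrays, summed to 8.82 to 8.95 in EXPD4 and 9.32 to 9.53 in TPA, against 8.66 to 9.04 in CTRL. Decorin, Dcn, a matrix proteoglycan of fibroblasts, was 1.69 ± 0.23 higher in TPA than in CTRL (adjusted p = 0.00117). It was the 1 fibroblast marker that passed as higher in this comparison, and 0 passed as lower, beside 20.8% of all genes passing. The median difference of the 6 was 0.05. The 7 melanocyte markers, 4 of them under the limit, summed to 8.80 to 8.96 in EXPD4 and 9.04 to 9.13 in TPA, against 8.59 to 9.60 in CTRL. The 6 Merkel cell markers, 4 of them under the limit, summed to 8.50 to 8.55 in EXPD4 and 8.44 to 8.61 in TPA, against 8.61 to 8.73 in CTRL. The 2 red blood cell markers measured, 1 of them under the limit, summed to 8.71 to 9.12 in EXPD4 and 8.68 to 8.71 in TPA, against 9.16 to 9.36 in CTRL.

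Follicle and gland markers were in part above background. Of the 6 bulge markers, Cd34, Lgr5 and Lhx2 lay under the limit on all arrays. The 6 summed to 10.35 to 10.81 in EXPD4 and 10.965 to 10.998 in TPA, against 10.80 to 11.003 in CTRL. Among them Fgf18 had differences of -1.78 ± 0.16 in EXPD4 (limma adjusted p = 0.000352) and -1.43 ± 0.18 in TPA (adjusted p = 0.000768). Nfatc1 was 0.46 ± 0.11 higher in TPA than in CTRL (adjusted p = 0.0189). The 5 sebaceous gland markers measured, 0 of them under the limit on all arrays, summed to 11.96 to 12.56 in EXPD4 and 11.71 to 13.04 in TPA, against 12.28 to 12.66 in CTRL. Of 8 infundibulum genes measured, 1 was higher and 2 were lower in EXPD4 than in CTRL, beside 11.5% of all genes passing. In TPA 1 was higher and 2 lower, beside 20.8%. The list's median differences were -0.17 and 0.43, beside 0.01 and -0.03 over all genes. Plet1, a marker of the upper follicle, had differences of -1.08 ± 0.13 (adjusted p = 0.0013) and -0.70 ± 0.15 (adjusted p = 0.0105, but 0.0725 without TPA 2). Sostdc1, an inhibitor of BMP and Wnt signals, was 0.77 ± 0.12 higher in EXPD4 (adjusted p = 0.004) and 1.27 ± 0.13 higher in TPA (adjusted p = 0.000259), and the other lower gene, Klk10, is given with the desquamation proteases. The part of all these cells in the members' differences was not tested.

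To see which genes shared the members' profiles, all genes were ranked by root mean square difference over the 8 arrays, each gene centred on its own mean. This was done for the 3 members whose arrays spanned at least 2 units: Tgm1, Casp14 and Cdsn. The nearest genes to Tgm1 were Otud7a at 0.14, Serpinb1a at 0.17 and 9530059O14Rik at 0.18. All 3 had their lowest mean in TPA and their highest in CTRL, as Tgm1 did. The ranking used these same arrays, so this shared order follows from the choice. Nearest to Casp14 were Antxr1 at 0.32, Gpr146 at 0.33 and Pof1b at 0.34. Nearest to Cdsn were Sdr9c7 at 0.54, H2-Ab1 at 0.55 and Spink5 at 0.58, so no gene tracked Cdsn as closely as Otud7a tracked Tgm1.

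Some of these neighbours are themselves epidermal genes. Sdr9c7, which encodes a dehydrogenase of the lipid barrier, averaged 7.49 in EXPD4 and 7.26 in TPA, against 7.97, 9.40 and 9.39 on the CTRL arrays. Spink5, which encodes an inhibitor of the proteases that cut corneodesmosomes, averaged 5.62 in EXPD4 and 5.40 in TPA, under the background limit, against 5.85, 7.43 and 7.34 in CTRL. CTRL 1 was the lowest control for both, as for Cdsn, and the ranking on these arrays favours such genes. H2-Ab1 is one of the Langerhans cell markers above.

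**Figure D3:**
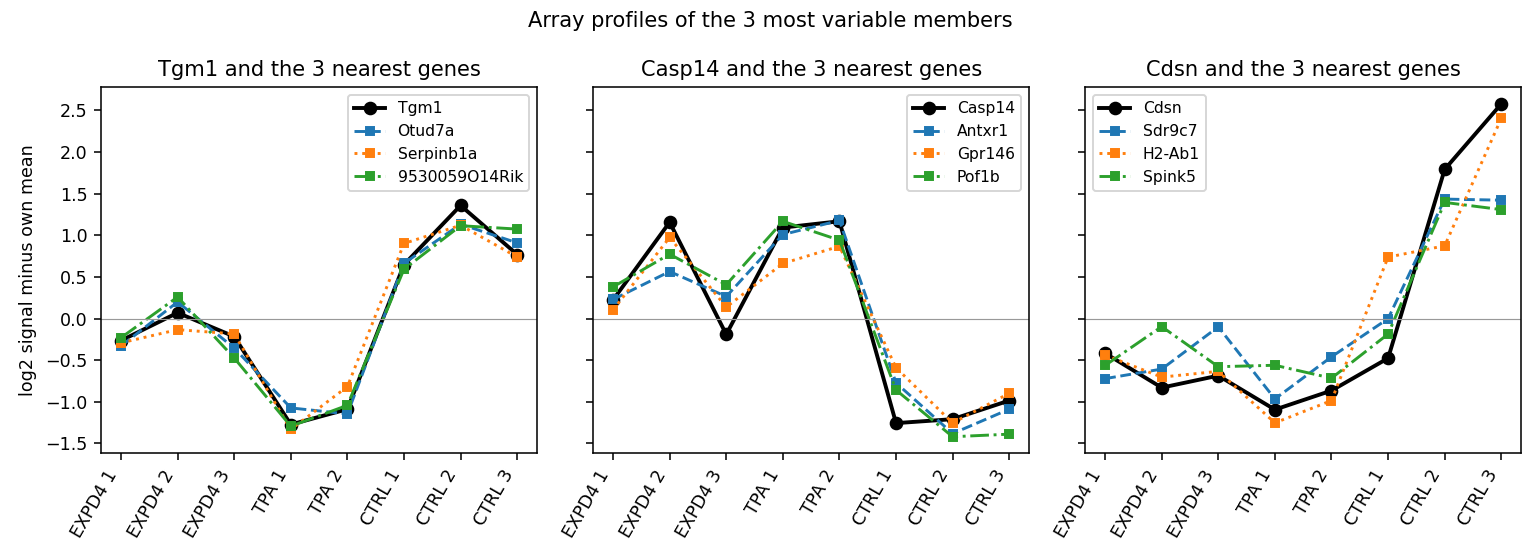
Log2 signal minus each gene's own mean on the 8 arrays (EXPD4, TPA, CTRL) for Tgm1, Casp14 and Cdsn with their 3 nearest genes; lines only join the points of a gene. Tgm1 and its neighbours are lowest on TPA arrays and highest on CTRL arrays. Casp14 and its neighbours are low on all CTRL arrays, and Cdsn is high on CTRL 2 and CTRL 3 only. The neighbours were chosen for their likeness on these arrays.

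Of 30 measured precursors and scaffold genes outside the family, 1 was higher and 3 were lower in EXPD4 than in CTRL, and 3 were higher and 3 lower in TPA, counts near the shares of 11.5% and 20.8% over all genes, while the signals of 10 and 11 of them were at background on every array compared. Csta1, a protease inhibitor built into the envelope, read 9.98, 10.34 and 9.97 in EXPD4 and 8.54 and 8.57 in TPA, against 11.20, 11.13 and 11.05 in CTRL. It was 1.54 ± 0.12 higher in EXPD4 than in TPA (adjusted p = 0.000445), the same order as Tgm1. Krt80, a keratin of differentiating cells, was 0.80 higher in EXPD4 and 2.02 higher in TPA (adjusted p = 0.0035 and 2.48e-05), and the annexin Anxa1 had differences of -0.44 and -0.58 (adjusted p = 0.00655 and 0.00155).

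The small proline-rich genes, whose products bridge loricrin in the envelope, were more often lower than higher. Of 10 measured, 1 was higher and 4 were lower in EXPD4, with a median difference of -0.76, beside 11.5% of all genes passing. In TPA 0 were higher and 8 lower, with a median of -1.40, beside 20.8%. At an unadjusted limma p under 0.05, 0 were higher and 9 lower in TPA. Sprr1b read 10.06, 10.27 and 10.37 in EXPD4 and 8.92 and 8.60 in TPA, against 10.99, 11.39 and 11.32 in CTRL. Sprr2h read 9.38, 10.43 and 9.76 in EXPD4 and 6.48 and 6.79 in TPA, against 10.73, 11.02 and 10.97 in CTRL, and was 3.22 ± 0.26 higher in EXPD4 than in TPA (adjusted p = 0.000519). Genes of this cluster are near copies, so probe sets may share transcripts.

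Lor, Flg and Ivl lie in the epidermal differentiation complex of chromosome 3 together with these genes. Between S100a11 and S100a9 (chr3:90726906-93471980) the reference holds 56 protein-coding genes, of which 35 were measured. Of the 32 that are no members, 1 was higher and 4 were lower in EXPD4 than in CTRL, and 0 were higher and 7 lower in TPA. These are small proline-rich genes already counted above, and over all genes 11.5% and 20.8% passed. Between EXPD4 and TPA, 4 were higher in EXPD4 and 0 lower, beside 3.16% and 2.81% of all genes. At an unadjusted limma p under 0.05, members included, 1 of 35 was higher and 11 were lower in EXPD4 than in CTRL. In TPA 0 were higher and 12 lower than in CTRL, and in EXPD4 5 were higher and 0 lower than in TPA. Of all 17097 genes, 4056, 5412 and 3307 passed that p in these comparisons. In each comparison with CTRL at least 15 of the 32 were at background on every array compared, and between EXPD4 and TPA 19 were.

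The genes that process filaggrin and cut corneocyte junctions were mixed. Of 10 measured genes of filaggrin processing, 1 was higher and 2 were lower in EXPD4, beside 11.5% of all genes passing. In TPA 1 was higher and 3 lower, beside 20.8%. Without CTRL 1 none passed between EXPD4 and CTRL. Bleomycin hydrolase (Blmh), which finishes the breakdown of filaggrin, was at -0.85 ± 0.08 in TPA (adjusted p = 0.000125) and -0.19 in EXPD4 (adjusted p = 0.137), and was 0.66 ± 0.08 higher in EXPD4 than in TPA (adjusted p = 0.00251).

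Of 11 measured desquamation proteases and inhibitors, 3 were higher and 2 lower in EXPD4, beside 11.5% of all genes passing. In TPA 2 were higher and 4 lower, beside 20.8%. The kallikrein Klk10 read 9.25, 9.51 and 9.63 in EXPD4 and 6.80 and 7.37 in TPA, against 10.79, 10.77 and 10.67 in CTRL. Its differences were -1.28 ± 0.15 (adjusted p = 0.00108) and -3.66 ± 0.17 (adjusted p = 4e-06), while Klk11 was 0.75 and 0.81 higher. Cathepsin L (Ctsl), a lysosomal protease, gave -0.65 and -0.96.

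Desmosomal genes, partners of Cdsn in the junction, moved in both directions. Of 11 measured, 2 were higher and 1 was lower in EXPD4, where 11.5% of all genes passed. In TPA 1 was higher and 1 lower, where 20.8% of all genes passed. The desmocollin Dsc2 read 9.21, 9.45 and 9.75 in EXPD4 and 6.67 and 6.80 in TPA, against 10.57, 10.90 and 10.81 in CTRL. Its differences were -1.29 ± 0.14 (adjusted p = 0.000765) and -4.02 ± 0.16 (adjusted p = 2.13e-06). Dsc1, the desmocollin of upper layers, was 1.45 ± 0.24 higher in EXPD4 (adjusted p = 0.00567) and had a difference of 0.67 in TPA (adjusted p = 0.12); between EXPD4 and TPA it differed by 0.77 (adjusted p = 0.15).

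The lipid barrier genes, whose products make, alter or break down ceramides and other lipids of the barrier, were lower more often than higher. Of 24 measured, 2 were higher and 10 lower in EXPD4, with a median difference of -0.29, beside 11.5% of all genes passing. In TPA 3 were higher and 10 lower, with a median of -0.38, beside 20.8%. The cholesterol sulfotransferase Sult2b1 read 7.69, 8.10 and 8.22 in EXPD4 and 6.63 and 6.79 in TPA, against 8.96, 9.33 and 9.01 in CTRL. It was 1.29 ± 0.17 higher in EXPD4 than in TPA (adjusted p = 0.00397). The fatty acid elongase Elovl1 had differences of -0.51 and -0.77, and Sptlc2, a subunit of the enzyme that starts sphingolipid synthesis, -0.66 and -0.96; with the mean of its probe sets the EXPD4 difference was -0.20 (adjusted p = 0.113).

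Transcription factors of epidermal differentiation moved in both directions. Of 24 measured, 7 were higher and 3 lower in EXPD4, beside 11.5% of all genes passing. In TPA 10 were higher and 6 lower, beside 20.8%. Pou2f3, a POU factor of suprabasal keratinocytes, read 8.93, 9.13 and 9.19 in EXPD4 and 9.67 and 9.71 in TPA, against 7.05, 6.97 and 7.19 in CTRL. Its differences were 2.01 ± 0.09 (adjusted p = 2.43e-05) and 2.62 ± 0.10 (adjusted p = 2e-06), and EXPD4 minus TPA was -0.61 ± 0.10 (adjusted p = 0.0119, but up to 0.0519 without TPA 1 or TPA 2). The nuclear receptor Rora was 0.95 and 1.57 higher and the homeodomain protein Hopx 0.77 and 1.47 higher, while basonuclin, Bnc1, a factor of basal cells, had differences of -0.85 and -1.30.

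Of 15 measured genes of calcium and Notch signalling, which drive stratification, 3 were higher and 1 lower in EXPD4, beside 11.5% of all genes passing. In TPA 4 were higher and 5 lower, beside 20.8%. Without CTRL 1 the count of higher genes in EXPD4 was 1. The receptor Notch1 was 0.53 ± 0.07 higher in EXPD4 (adjusted p = 0.00211) and 0.81 ± 0.08 higher in TPA (adjusted p = 0.000192), while its ligand Jag1 had differences of -0.70 and -0.69.

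Genes of basal identity fell more often than they rose: 2 of 11 were higher and 6 lower in each comparison with CTRL. The shares of all genes passing were 11.5% in EXPD4 and 20.8% in TPA. Integrin beta-1 (Itgb1), which anchors basal cells, had differences of -0.88 and -1.25, and the laminin chain Lamb3 -0.96 and -1.25. Krt15, a keratin of basal and bulge cells, went the other way, 1.23 ± 0.09 higher in EXPD4 (adjusted p = 0.000106) and 2.38 ± 0.10 higher in TPA (adjusted p = 2.54e-06). The gene of the sorting marker, Itga6, had differences of -0.47 and -0.69 (adjusted p = 0.00275 and 0.000323).

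Between EXPD4 and CTRL the median difference was 0.52 for early suprabasal genes, -0.07 for other envelope precursors, -0.09 for other transglutaminases, -0.05 for filaggrin processing, 0.02 for desquamation, 0.07 for desmosomes, 0.12 for transcription factors, 0.06 for calcium and Notch genes and -0.38 for basal identity. Between TPA and CTRL the medians in the same order were 0.52, -0.12, -0.16, -0.09, -0.21, 0.04, 0.15, -0.01 and -0.32. Over all genes they were 0.01 and -0.03.

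Several list counts moved with the setting. Over the alternatives, including each array left out, 2 to 6 small proline-rich genes were lower in EXPD4 and 5 to 9 in TPA, and 2 to 6 of the other precursors were lower in EXPD4. Of the filaggrin processing genes 0 to 3 were lower in EXPD4, and of the transcription factors 5 to 8 were higher in EXPD4 and 7 to 11 in TPA. The lipid barrier genes gave 8 to 10 lower in EXPD4 and 8 to 11 in TPA, and the basal identity genes 6 to 7 and 5 to 6.

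**Figure D4:**
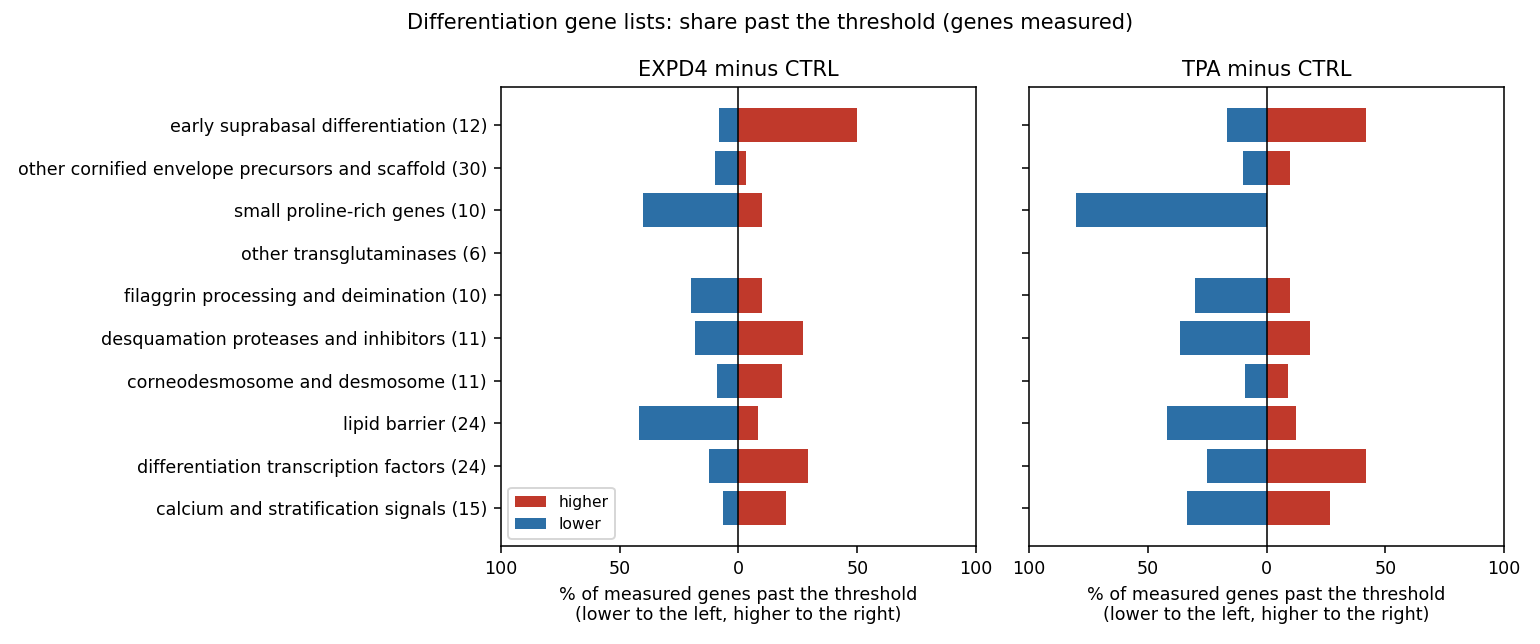
Share of the measured genes of each list past an adjusted p of 0.05 in EXPD4 minus CTRL and TPA minus CTRL, lower to the left and higher to the right, with the number measured in brackets; over all genes 11.5% and 20.8% passed. The early suprabasal bars lie mostly to the right, and the bars of the small proline-rich and lipid barrier genes mostly to the left.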

How the data were processed

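The deposited values are log2 signals on Affymetrix mouse arrays, summarised by RMA per the submitters' processing notes, with no version given. Per the labels, RNA of 300 sorted cells was amplified for 25 cycles. Neither scanner files nor detection calls entered the work. Of 45141 probe sets, 28898 carried 1 gene symbol in the platform annotation, which dates from 2016, 551 several, 15588 none and 104 were array controls; they gave 17097 genes, by the probe set with the highest mean, and 32.9% of genes lay under the background limit on all arrays.

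With limma 3.58.1 (R 4.3.3), lmFit and eBayes were run on the 8 arrays with group as the only factor, and p-values were adjusted by Benjamini-Hochberg over all genes (threshold 0.05). The fit was tested on simulated data. At an unadjusted p of 0.05, 6, 7 and 2 members passed between EXPD4 and CTRL, TPA and CTRL, and EXPD4 and TPA. Of all 17097 genes, 4056, 5412 and 3307 passed in the same order. Each array is a different mouse. Named genes are the members, up to 4 genes per list with the smallest p in each comparison, the check genes and the 3 nearest genes of members spanning 2 units; Cd207, Ptprc and Cdh5 were added after their values were seen. The members and lists were chosen with earlier results of these data known. Alternatives were the normalization, centring, filter, choice of probe set, spread model, array weights, groups in the fit, replicate block and leaving out each array; raising signals to the background limit was added after seeing the data.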

Additional observations from a re-analysis of the deposited data

How the results depend on the processing

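The members' calls were recomputed under 18 alternative settings. Tgm1, Cnfn, Casp14 and Krtdap kept their direction and stayed past the threshold against CTRL under all of them, for both EXPD4 and TPA. With each of 28898 probe sets tested by itself, 2972 probe sets passed between EXPD4 and CTRL and 5816 between TPA and CTRL. The main fit passed 1960 and 3559 of 17097 genes, so these counts have different totals. Between EXPD4 and TPA, 1022 genes passed, 541 with the replicate block and 511 with only the 2 groups in the fit. With only genes above the median signal, 7 members passed between TPA and CTRL, Ivl, Sbsn and Cdsn besides the other 4. In this setting 3317 genes passed, out of fewer than the 17097 of the main fit. Lor and Flg lay under the median and were not tested there, so the member counts have different totals too. Leaving out an array gave 1261 to 2076 genes and 4 to 5 members between EXPD4 and CTRL, 2613 to 3344 genes and 4 to 6 members between TPA and CTRL, and 560 to 922 genes and 0 to 1 members between EXPD4 and TPA. The genes fell more than 1.5 times below the full count without CTRL 2 (1261, EXPD4 and CTRL) and, between EXPD4 and TPA, without EXPD4 2 (636), EXPD4 3 (560) or TPA 1 (568). Members were 0 without EXPD4 3 or TPA 2. Replicate numbers were not taken as pairs. Same-numbered arrays had residual correlations of -0.18 to 0.03, which in groups this small cannot show whether they shared a batch. The replicate block gave 4, 4 and 1 members and 1642, 2829 and 541 genes. Signs turned only for members that did not pass. With signals raised to the background limit, Lor was at -0.051 between EXPD4 and CTRL, Lor and Flg at -0.034 between TPA and CTRL, and Lor at -0.017 between EXPD4 and TPA. When 1 array was left out, TPA minus CTRL ran from -0.19 to 0.47 for Lor and from -0.20 to 0.64 for Flg. EXPD4 minus TPA then ran from -0.12 to 0.55 for Lor, from -0.72 to 0.12 for Flg, from -0.075 to 0.37 for Ivl, from -0.25 to 0.024 for Cnfn and from -0.033 to 0.11 for Krtdap. Both ends of each range came from leaving out TPA 1 or TPA 2. With 1 TPA array left, its spread is assumed to be that of the other groups. The cause was not tested. The number of arrays limits the precision, and 2 TPA arrays most.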
